A study of Mus musculus with 4 samples.

Results

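The 9 genes described here are genes of vitamin A (retinoid) metabolism and aldehyde oxidation and were followed across 4 mouse colon tumour libraries. They were the retinol-binding protein genes Rbp2 and Rbp7, the retinol dehydrogenase gene Dhrs9, the retinal dehydrogenase genes Aldh1a1, Aldh1a2 and Aldh1a3, and the aldehyde oxidase genes Aox1, Aox3 and Aox4. They were chosen by symbol, with the difference between the groups in these same counts already known, so their differences are a description and were given no test of their own. All 9 of the 9 symbols had a row among 26214 gene symbols, and 8 passed the filter on low counts, Rbp7 being the exception. Tumours in every group had been raised by the same 2 agents, the carcinogen azoxymethane and the colitis-inducing polymer dextran sulfate sodium. Groups of 2 libraries were labelled Gsk3b (IEC+/+) and Gsk3b (IEC-/-), for the kinase gene Gsk3b intact or lost in intestinal epithelial cells. The labels give no Cre driver, deleted exon, strain, age, sex or treatment time, and do not say whether libraries came from separate mice, so p-values below measure the spread between these libraries only.

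Retinol enters cells and is held by cellular retinol-binding proteins, of which RBP2 is known from absorptive cells of the small intestine. Dehydrogenases such as DHRS9 oxidize retinol to retinal, and the ALDH1A enzymes oxidize retinal to retinoic acid, the ligand of the nuclear receptors RAR and RXR. In the gut retinoic acid is known for epithelial differentiation and for steering lymphocytes to the mucosa. Aldehyde oxidases are molybdenum-containing enzymes that oxidize aldehydes, retinal among them, and many drugs.

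The libraries held 25472503 to 27218515 counts. Gsk3b had 170, 157, 152 and 149 CPM (counts scaled to the library's effective size) in IEC+/+ replicates 1 and 2 and IEC-/- replicates 1 and 2, in that order, as in every list of 4 values below. The tissue is a mixture and the deleted part is not named, so this count does not check the labels. All 10 general epithelial markers (Epcam, Krt8 and others) were counted, their sums being 11214, 9690, 6690 and 6301 CPM. In edgeR's quasi-likelihood test 147 of 16637 genes were called at a Benjamini-Hochberg adjusted p under 0.05, which is 0.884%. Leaving out either IEC+/+ library ended every call in the table, those below included. In IEC-/- replicate 2 markers of squamous epithelium stood far above the other libraries, at 144, 120, 27.7 and 2663 CPM in sum. The number of genes called rose when either IEC-/- library was left out, which leaves 1 library in that group.

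The sequences upstream of 4 of the genes are shown first, because Dhrs9 and Aox4, which differed between the groups in opposite directions, held the same run of 7 letters near their start. From RefSeq (GRCm38.p6), each run holds the 250 bases before the start that its promoter table uses, 5′ to 3′ on the plus strand. For Aox1 that start, 58029969, lies 160 bases inside the gene as listed (from 58029809), so its run reaches into the gene. Capitals mark the AP-1 motif TGANTCA, the TATA motif TATAAA and the nuclear receptor half-site AGGTCA, on either strand. Aox1, the neighbour of Aox4 in its cluster, and Rbp2 are set beside them. Dhrs9 is at chr2:69380212-69380461, Aox1 at chr1:58029719-58029968, Aox4 at chr1:58210147-58210396 and Rbp2 at chr9:98490287-98490536.
Dhrs9: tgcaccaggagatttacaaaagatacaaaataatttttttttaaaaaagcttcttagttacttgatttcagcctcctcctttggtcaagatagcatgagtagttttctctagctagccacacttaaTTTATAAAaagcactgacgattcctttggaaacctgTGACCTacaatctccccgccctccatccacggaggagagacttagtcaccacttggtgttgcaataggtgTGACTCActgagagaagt
Aox1: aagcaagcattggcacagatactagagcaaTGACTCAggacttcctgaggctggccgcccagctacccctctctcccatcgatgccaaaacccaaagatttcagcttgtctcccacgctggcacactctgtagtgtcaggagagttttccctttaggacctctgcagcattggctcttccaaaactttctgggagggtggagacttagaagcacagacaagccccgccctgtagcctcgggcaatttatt
Aox4: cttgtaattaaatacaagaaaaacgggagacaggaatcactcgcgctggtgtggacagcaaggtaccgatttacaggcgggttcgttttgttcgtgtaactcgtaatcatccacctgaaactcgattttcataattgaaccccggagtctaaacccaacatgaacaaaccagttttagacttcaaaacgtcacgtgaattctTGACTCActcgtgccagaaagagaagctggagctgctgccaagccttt
Rbp2: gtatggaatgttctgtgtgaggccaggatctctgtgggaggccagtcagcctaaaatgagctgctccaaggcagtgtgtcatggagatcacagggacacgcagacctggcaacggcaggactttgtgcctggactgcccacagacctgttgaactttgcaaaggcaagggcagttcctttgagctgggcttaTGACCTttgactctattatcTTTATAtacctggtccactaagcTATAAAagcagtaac
The motifs were picked after these letters had been seen. TGANTCA, which reads the same on both strands, was found as TGACTCA in 4 of the 8 members with a promoter entry, and 6.75% of all 32851 RefSeq promoters cut to this length held the motif. It lay 18 to 12 bases before the start of Dhrs9, 48 to 42 before that of Aox4, and 57 to 51 before the first of 2 starts of Aldh1a1, whose other window held none. In Aox1 it lay 220 to 214 bases before the start of the promoter table, which is 60 to 54 before the listed start of the gene. The half-site AGGTCA was in Dhrs9 and Rbp2 (14.02% of all promoters), read on the minus strand as TGACCT in each. TATAAA was in the same pair of genes (12.37% of all); its letters overlap on both strands in Dhrs9. The TCF motif CTTTGAT and the CDX motif TTTATG were in 0 of the 9 windows of these 8 members. They were in 3.21% and 10.76% of all promoters. Not all 9 windows lie before the gene as listed. The Rbp7 window belongs to a start 11494 bases inside the gene, and the second Aldh1a1 window to a start 109385 bases inside. The shares are of promoters, over 27025 genes, whereas members with a match were counted by gene. All motif hits are matches of letters in a short window, not measured binding.

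Levels per kilobase of exon, from GENCODE exon unions of 718 bases (Rbp7) to 8690 bases (Aox1), set the members in order. In IEC+/+ the retinal dehydrogenase gene Aldh1a3 was highest, at 59.4 ± 2.74 CPM per kilobase (SD, n = 2 libraries, as throughout), followed by Dhrs9 at 14.3 ± 2.18 and Rbp2 at 2.80 ± 0.629. Aldh1a1 at 1.18 ± 0.810 and Aox4 at 0.858 ± 0.0184 overlapped, and so did Aox1 at 0.403 ± 0.0772, Rbp7 at 0.346 ± 0.0425 and Aldh1a2 at 0.319 ± 0.258. Aox3 was lowest, at 0.0597 ± 0.0145 CPM per kilobase. In IEC-/- Aldh1a3 was again highest in both libraries, at 14.7 ± 3.88 CPM per kilobase, and Aox4 came next in both, at 3.03 ± 0.187. Dhrs9 at 1.84 ± 0.322, Aldh1a1 at 1.68 ± 0.609, Aldh1a2 at 1.51 ± 1.46 and Rbp2 at 1.17 ± 0.647 overlapped with one another. Aox1 at 0.443 ± 0.106, Rbp7 at 0.308 ± 0.0602 and Aox3 at 0.0570 ± 0.0423 CPM per kilobase made up the low end.

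**Figure D1:**
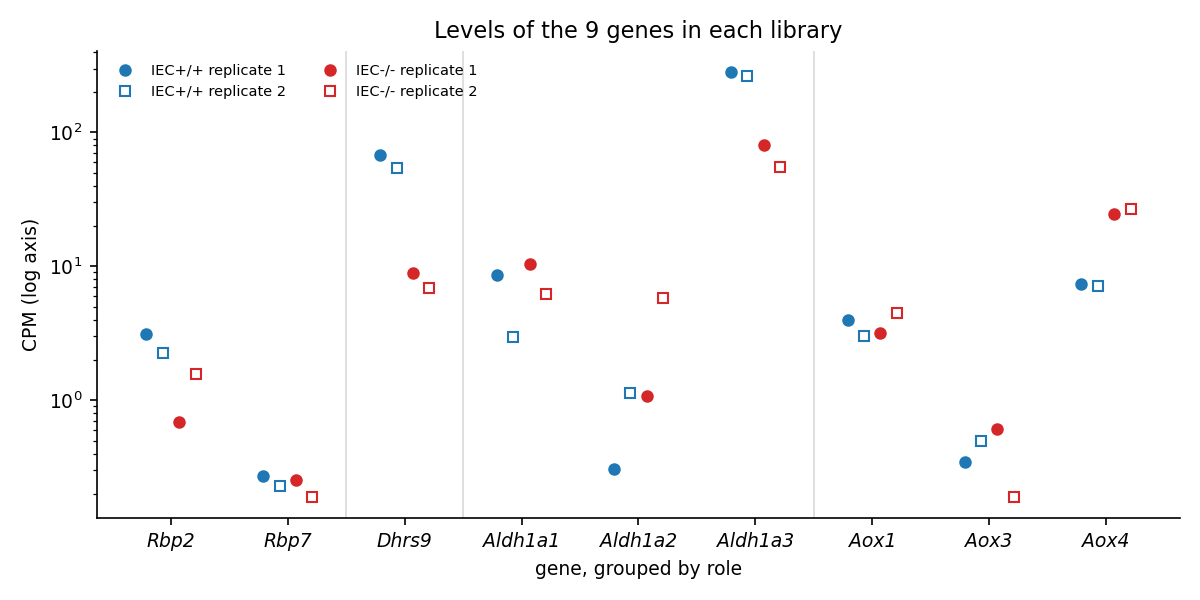
CPM of each gene (log axis) in the 4 libraries, blue for IEC+/+ and red for IEC-/-, circles for replicate 1 and open squares for replicate 2. Dhrs9 and Aldh1a3 lie lower and Aox4 higher in both IEC-/- libraries, whereas the libraries of the other tested genes except Rbp2 interleave.

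Of the 8 members tested, 3 were called over all genes. Aox4 was higher in IEC-/- (0.120% of all genes tested were called higher) and Dhrs9 and Aldh1a3 were lower (0.763% were called lower). Since the members were picked with this contrast known, nothing is read from that share. In 4 of the 8 the groups did not overlap in CPM, 3 lower (24.1% of all genes tested) and 1 higher (24.0%). The other 4 overlapped.

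Of the retinol-binding genes, Rbp2 was counted 81, 60, 19 and 41 times, or 3.13, 2.27, 0.683 and 1.56 CPM. Both IEC-/- libraries were below both IEC+/+ libraries, but the IEC-/- libraries differed 2.29-fold from each other. The fitted log2 fold change (IEC-/- over IEC+/+) was -1.26 (SE 0.55), and the 95% interval of the ratio, 0.160 to 1.08, included no change. It was -1.98 without IEC-/- replicate 2 and -0.79 without IEC-/- replicate 1. Rbp2 lies on chromosome 9 (98490537 to 98509771). Rbp7 (chromosome 4, 149449687 to 149466462), another cellular retinol-binding protein gene, was counted 7, 6, 7 and 5 times. With 25 counts in all it was too rare for a difference to be detectable.

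Dhrs9 encodes a short-chain dehydrogenase that can oxidize retinol. Its counts were 1759, 1446, 246 and 181, or 67.9, 54.7, 8.85 and 6.90 CPM. Both IEC-/- libraries were far below both IEC+/+ libraries, and libraries of the same group lay close together. The group means were 61.3 ± 9.32 and 7.87 ± 1.38 CPM, a fall of 7.78-fold (log2 fold change -2.96, SE 0.20; 95% interval of the ratio 0.0904 to 0.183). Dhrs9 lies on chromosome 2 (69380462 to 69403086). Its values with each library left out ran from -3.16 to -2.80.

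The ALDH1A genes did not move as a family. Aldh1a3, on chromosome 7 (66390892 to 66427477), had 7333, 7006, 2236 and 1445 counts, or 283, 265, 80.4 and 55.1 CPM. The IEC+/+ libraries were alike and both IEC-/- libraries were lower, with means of 274 ± 12.7 and 67.8 ± 17.9 CPM. The fall was 4.04-fold (log2 fold change -2.02, SE 0.21; 95% interval of the ratio 0.173 to 0.354). Lrrk1, a kinase gene 2551 bases away, had 97.6, 115, 113 and 98.5 CPM (log2 fold change -0.01, SE 0.14, edgeR adjusted p = 0.988).

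Aldh1a1, on chromosome 19 (20492583 to 20643463), had 8.65, 2.99, 10.4 and 6.18 CPM from 224, 79, 290 and 162 counts. The groups overlapped, and the IEC+/+ libraries differed 2.89-fold (log2 fold change 0.51, SE 0.56; 95% interval of the ratio 0.540 to 3.77). Of its windows of 75 bases, 1.01% were identical in Aldh1a7, its close paralog on the same chromosome, and how shared reads were counted is not given in the sources used here, so the values of this pair are uncertain. Aldh1a7 had 2.47, 1.06, 0.827 and 2.17 CPM.

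Aldh1a2, on chromosome 9 (71215789 to 71296243), was rare in 3 libraries and higher in 1, with 8, 30, 30 and 151 counts, or 0.309, 1.14, 1.08 and 5.76 CPM. IEC-/- replicate 2 stood 5.33-fold above IEC-/- replicate 1, which lay below IEC+/+ replicate 2. The log2 fold change was 2.23 (SE 0.99; 95% interval of the ratio 0.846 to 26.1) and 0.57 without IEC-/- replicate 2. That library is the one rich in squamous markers, such as the keratin gene Krt5 at 0.193, 10.4, 0 and 795 CPM. Of 10 squamous markers 8 were tested and 0 passed by edgeR, DESeq2 or limma-voom (0 at a nominal (unadjusted) p under 0.05). Gut dendritic cells, a known source of ALDH1A2, had 8 markers tested. Of these, 0 passed by edgeR, DESeq2 or limma-voom (1 lower at a nominal (unadjusted) p under 0.05). Their sums were 39.2, 31.3, 57.2 and 38.2 CPM, with 0 markers at 0 in all libraries. The part of either cell type in the Aldh1a2 value was not tested.

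Within the ALDH1A family the make-up of the length-scaled level shifted. Aldh1a3 made up 97.0% and 98.1% of it in the IEC+/+ libraries and 87.1% and 75.9% in the IEC-/- libraries. The summed level of the 3 genes was 63.2, 58.5, 20.0 and 15.7 CPM per kilobase. The IEC-/- libraries thus had less of these transcripts in sum, and Aldh1a1 and Aldh1a2 together held a larger part of it.

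**Figure D2:**
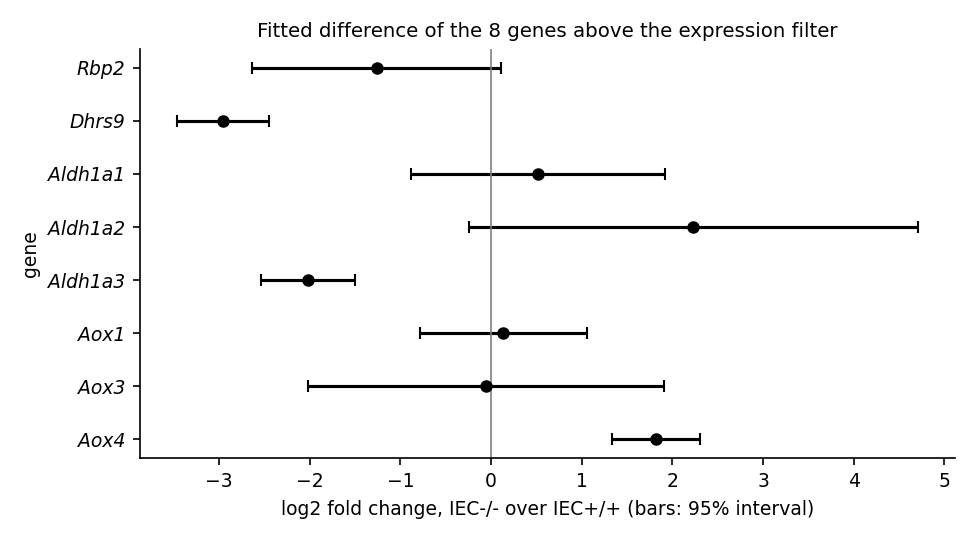
Log2 fold change of IEC-/- over IEC+/+ for the 8 genes that passed the expression filter; points are fitted values and bars 95% intervals over 2 libraries per group. The intervals of Dhrs9, Aldh1a3 and Aox4 lie away from 0, and that of Aldh1a2 is the widest.

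The aldehyde oxidase genes sit in tandem on chromosome 1, in the order Aox1 (58029809 to 58106410), Aox3 (58113135 to 58202221), Aox4 (58210397 to 58268600) and Aox2. Aox4, known from the Harderian gland and keratinized epithelia, had 190, 188, 679 and 699 counts, or 7.33, 7.11, 24.4 and 26.6 CPM. Libraries of the same group were nearly equal, and both IEC-/- libraries were above both IEC+/+ libraries. The means were 7.22 ± 0.155 and 25.5 ± 1.57 CPM (log2 fold change 1.82, SE 0.20; 95% interval of the ratio 2.52 to 4.96).

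Aox1, the most widely expressed member of the cluster, had 103, 80, 89 and 118 counts, or 3.98, 3.03, 3.20 and 4.50 CPM. The groups overlapped, with a log2 fold change of 0.14 (SE 0.37; 95% interval of the ratio 0.579 to 2.09). Aox3, best known from liver, had 9, 13, 17 and 5 counts (log2 fold change -0.06, SE 0.79), and at this depth its ratio is bounded only to 0.246 to 3.75. Aox2 was counted 3, 0, 1 and 4 times. The 4 aldehyde oxidase genes shared 0 windows of 75 identical bases. Only exact identity was compared, and how reads with mismatches were counted is not given in the sources used here. Just outside the cluster, Sgo2a had 22.9, 19.9, 23.6 and 14.3 CPM and Bzw1 436, 423, 390 and 379 CPM (log2 fold changes -0.17 and -0.16, edgeR adjusted p = 0.825 and 0.536). Aox4 made up 63.2%, 66.9%, 86.4% and 85.3% of the summed length-scaled level of Aox1, Aox3 and Aox4.

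**Figure D3:**
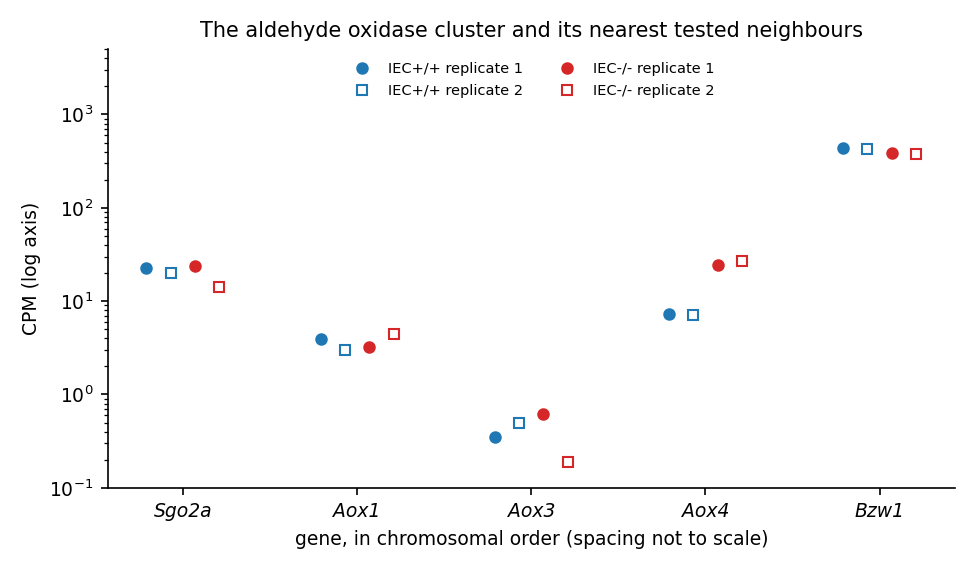
CPM (log axis) of the aldehyde oxidase genes and the nearest tested gene on either side, in chromosomal order, for the 4 libraries. Aox4 is the gene whose IEC-/- libraries (24.4 and 26.6 CPM) stand above its IEC+/+ libraries (7.33 and 7.11 CPM).

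Around the 8 members other than Rbp2, the nearest tested gene on either side gave 12 genes that are no members. By edgeR 0 of them passed (0 at a nominal (unadjusted) p under 0.05, 0 by DESeq2 and 0 by limma-voom), and their log2 fold changes ran from -0.43 to 0.33.

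Levels of cell type markers moved with some of these values. The 10 colonocyte markers summed to 889, 529, 141 and 118 CPM; 3 of 10 fell over all genes (the water channel gene Aqp8, the keratin gene Krt20 and the transporter gene Slc5a8), 9 of 10 were lower at a nominal (unadjusted) p under 0.05, with 7 lower by DESeq2 and 1 by limma-voom, and 0 of the markers were at 0 in all libraries. Of 8 goblet cell markers 2 fell by edgeR, the mucus genes Fcgbp and Tff3. Lower at a nominal (unadjusted) p under 0.05 were 7 of these 8, with 5 lower by DESeq2 and 2 by limma-voom. The goblet cell markers summed to 5610, 3498, 677 and 1399 CPM. Of 10 general epithelial markers 0 passed by edgeR (8 lower at a nominal (unadjusted) p under 0.05, 7 lower by DESeq2, 0 by limma-voom). In these bulk samples fewer cells of a type and less RNA per cell cannot be told apart.

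Relative to the summed general epithelial markers of the same library, Dhrs9 had 6.05, 5.65, 1.32 and 1.10 CPM per 1000 CPM of markers, 4.84-fold lower in the IEC-/- means. Aldh1a3 had 25.2, 27.4, 12.0 and 8.74 on the same scale, 2.53-fold lower. Relative to the summed colonocyte markers, Dhrs9 had 76.4, 103, 62.7 and 58.4 CPM per 1000 CPM, 1.48-fold lower, and Aldh1a3 had 318, 501, 570 and 467, with overlapping groups. Rbp2 overlapped between the groups relative to the general epithelial sum, at 0.279, 0.234, 0.102 and 0.248 CPM per 1000 CPM. Relative to the colonocyte sum Rbp2 was higher in both IEC-/- libraries, at 3.52, 4.29, 4.84 and 13.2, with a ratio of means of 2.32, opposite to its direction in CPM. Abundant markers weigh most in these sums, such as Krt20 among colonocyte markers (327, 239, 51.4 and 26.3 CPM). Among general epithelial markers Krt8 weighs most (3302, 2615, 1623 and 1423 CPM). Log2 fold changes ran from -5.40 (Aqp8) to 0.28 (Guca2b) for colonocyte markers. For general epithelial markers they ran from -1.29 (Tspan8) to -0.07 (Krt18), so the ratios depend on the markers summed. These ratios were chosen after the data had been seen, and the part of cell make-up in the falls was not tested.

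Beside Aox4, markers of squamous epithelium and of liver were read as well. The squamous sum was lowest in IEC-/- replicate 1 (27.7 CPM), where Aox4 had 24.4 CPM against 26.6 CPM in IEC-/- replicate 2. Of 10 hepatocyte markers, the fibrinogen genes Fgb and Fgg and the urinary protein gene Mup3 were at 0 in all libraries. The sum was 34.6, 55.5, 103 and 84.0 CPM. By edgeR 1 of 5 tested rose and 0 fell (2 higher and 1 lower with p not adjusted). DESeq2 called 1 higher and 1 lower, and limma-voom 0. The one that rose by edgeR was the albumin gene Alb, at 10.04, 9.27, 88.8 and 55.7 CPM. Tat, a liver aminotransferase gene, had 17.3, 37.2, 4.96 and 8.96 CPM (log2 fold change -1.97, edgeR adjusted p = 0.137), in the other direction. The part of other cell types in the Aox4 value was not tested. Relative to the general epithelial markers Aox4 was 0.654, 0.734, 3.65 and 4.23 CPM per 1000 CPM. Among 8 heat shock genes, a sign of sample handling, 0 passed by edgeR (6 lower at a nominal (unadjusted) p under 0.05, 5 by DESeq2, 0 by limma-voom), with sums of 4778, 7706, 3127 and 3083 CPM; their part in any value here was not tested.

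**Figure D4:**
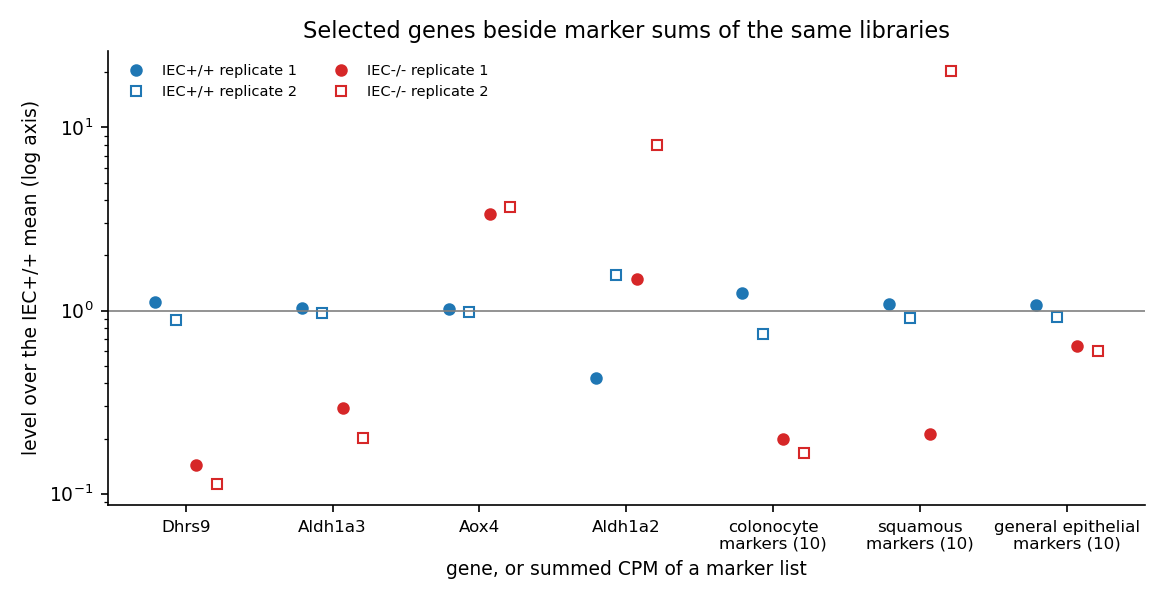
Level of 4 genes and summed CPM of 3 marker lists in each library, divided by the mean of the IEC+/+ libraries (log axis; the line marks that mean). Dhrs9, Aldh1a3, the colonocyte sum and the general epithelial sum lie below that mean in both IEC-/- libraries. So does the goblet cell sum, which is not drawn (5610, 3498, 677 and 1399 CPM). Aox4 is similar in both IEC-/- libraries (24.4 and 26.6 CPM) while the squamous sum is 27.7 CPM in one and 2663 CPM in the other.

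The other genes of retinoid and aldehyde metabolism were taken by role as 7 lists holding 90 genes, of which 73 were tested. Of these, 0 rose and 2 fell by edgeR over all genes. At an unadjusted p under 0.05, 6 were higher and 8 lower (7.50% and 9.12% of all genes tested). DESeq2 called 5 higher and 4 lower of the 73, beside 482 higher and 811 lower of all 16637 genes. The median log2 fold change of the 73 was 0.01, as over all genes tested (0.01).

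Among retinol and retinal oxidoreductases 1 of 18 tested fell and 0 rose (median 0.03; by limma-voom also 1 fell, by DESeq2 2 fell and 1 was higher). Rdh16, a microsomal retinol dehydrogenase gene, had 30.8, 35.0, 8.88 and 10.8 CPM, 3.35-fold lower in IEC-/- (log2 fold change -1.74, SE 0.20, edgeR adjusted p = 0.0413). The groups did not overlap. The adjusted p was 0.414 and 0.231 without IEC+/+ replicate 1 and 2. Of its windows of 75 bases 3.95% were identical in Rdh9, which makes its value uncertain, and Rdh9 itself had 233, 198, 297 and 326 CPM (0.53, SE 0.14, edgeR adjusted p = 0.155). Adh1, an alcohol dehydrogenase gene, had 114, 75.8, 38.8 and 48.2 CPM (-1.12, SE 0.23, edgeR adjusted p = 0.103).

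In uptake, storage and carotenoid cleavage edgeR called 0 of 11 tested genes (2 higher and 1 lower at a nominal (unadjusted) p under 0.05 and also by DESeq2, 0 by limma-voom; median -0.03). Isx, which encodes an intestinal homeobox repressor of carotenoid uptake, had 14.0, 15.9, 4.17 and 2.10 CPM (log2 fold change -2.25, SE 0.39, edgeR adjusted p = 0.0731). Stra6, a retinol transporter gene, had 219, 216, 281 and 311 CPM (0.45, SE 0.12, edgeR adjusted p = 0.164).

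Among 15 tested genes known to respond to retinoic acid, 1 fell and 0 rose by edgeR (median -0.12). At a nominal (unadjusted) p under 0.05, there were 1 higher and 3 lower. DESeq2 called 1 higher and 2 lower, and limma-voom 1 lower. The gene that fell by edgeR was Cd38, a NAD-consuming surface enzyme gene, at 260, 256, 88.1 and 56.5 CPM. It was 3.57-fold lower (log2 fold change -1.84, SE 0.23, edgeR adjusted p = 0.0461). Without IEC+/+ replicate 1 or 2 its adjusted p was 0.424 or 0.240. The retinoic acid hydroxylase gene Cyp26a1 was counted 5, 9, 12 and 20 times, and Rarb, a receptor gene, had 12.6, 29.6, 33.6 and 53.7 CPM (edgeR adjusted p = 0.489 and 0.322).

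Of the binding proteins, receptors and breakdown enzymes 0 of 11 passed by edgeR (1 higher and 1 lower at a nominal (unadjusted) p under 0.05, 0 by DESeq2 or limma-voom; median 0.10). Rxra had 98.5, 92.9, 69.4 and 76.4 CPM and Rarg 33.1, 28.0, 39.6 and 51.0 CPM (edgeR adjusted p = 0.209 and 0.220). Of 15 other aldehyde dehydrogenases 0 passed (2 higher and 1 lower at a nominal (unadjusted) p under 0.05, 2 higher by DESeq2, 0 by limma-voom; median 0.01), among them Aldh5a1 at 47.1, 47.8, 70.6 and 64.0 CPM and Aldh3b1 at 7.76, 6.55, 12.8 and 12.9 CPM (edgeR adjusted p = 0.132 and 0.178). Of 9 other molybdenum enzymes and cofactor genes 0 passed (0 at a nominal (unadjusted) p under 0.05, 0 by DESeq2 or limma-voom; median -0.06), with Mocos, whose product sulfurates the cofactor that aldehyde oxidases need, at 18.5, 15.2, 23.8 and 19.9 CPM and Suox, the sulfite oxidase gene, at 28.2, 21.5, 18.9 and 20.5 CPM. Of 4 lipid-binding protein genes tested 0 passed (1 lower at a nominal (unadjusted) p under 0.05, 0 by DESeq2 or limma-voom; median 0.19). That one was Fabp2, the intestinal fatty acid-binding protein gene, at 2.20, 2.35, 0.216 and 0.953 CPM.

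**Figure D5:**
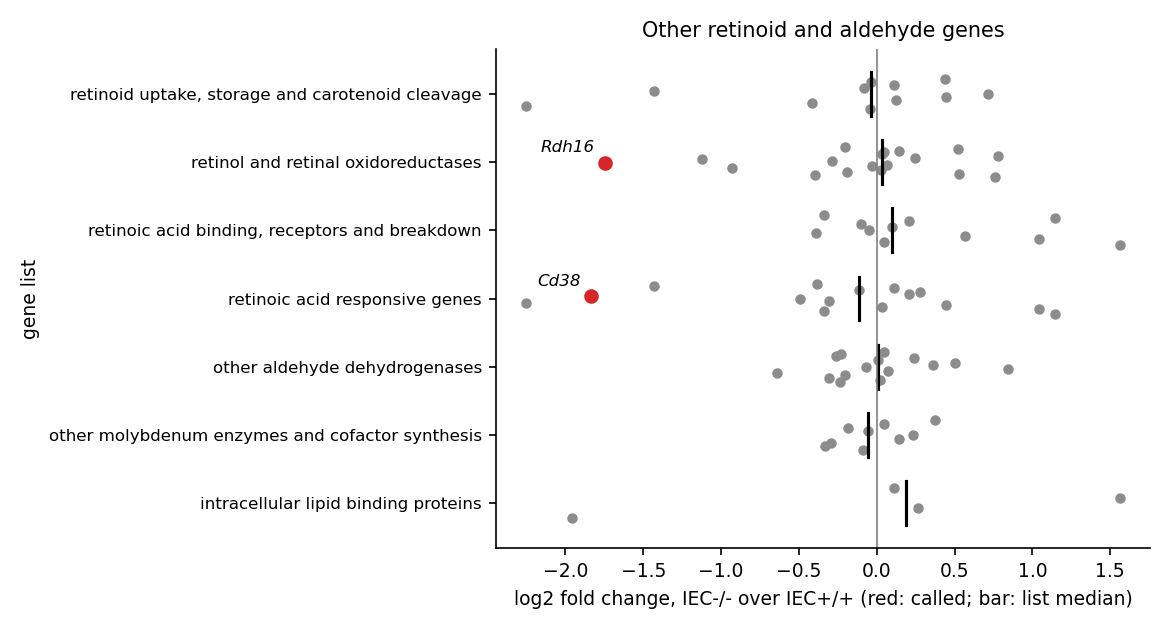
Log2 fold change of IEC-/- over IEC+/+ for each tested gene of the 7 lists (points; a gene of 2 lists appears in each), with the list median as a bar and called genes in red. Rdh16 and Cd38 are the called genes, and the medians lie between -0.12 and 0.19.

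Genes whose levels followed a member most closely were sought by the Euclidean distance between centred log2 CPM over the 4 libraries, among 15135 genes with a mean of at least 1 CPM. With 4 libraries such likeness mostly reflects the group difference for members that had one. For members whose groups overlapped, it reflects more of the spread between libraries. Nearest to Dhrs9 were 1810065E05Rik (distance 0.229) and Mgat4c (0.244), a glycosyltransferase gene at 122, 89.1, 17.3 and 10.9 CPM. Nearest to Aldh1a3 were Trim31 (0.165), a ubiquitin ligase gene at 62.7, 61.0, 15.9 and 11.4 CPM, and Smim31 (0.167). Nearest to Aox4 were A930003A15Rik (0.150) and the transcription factor gene Sox2 (0.193), at 3.55, 3.78, 14.3 and 13.7 CPM. Nearest to Aldh1a2 were Neb (0.254) and Hs6st2 (0.340), to Rbp2 Vstm5 (0.140) and Ugt1a9 (0.141), to Aldh1a1 Tceal3 (0.0723) and Nsg2 (0.105), to Aox1 Smim4 (0.0510) and Nt5dc1 (0.0560), and to Aox3 Gm28455 (0.0572) and 2610318N02Rik (0.0905).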

How the data were processed

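Polyadenylated RNA of colon tumour tissue was sequenced, and the authors deposited whole-number read counts per gene symbol, 1 file per library. Per the submitters' processing notes TopHat, limma, edgeR and the build mm10 were used, with no roles or versions; the counter, annotation and use of strand are not given in the sources used here. Groups came from the sample titles. All rows name a gene, and total counts per library set the precision (1 count is 0.0360 to 0.0386 CPM).

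Here the counts were tested with edgeR 4.0.16 (R 4.3.3): filterByExpr (minimum count 10), TMM scaling (factors 0.955 to 1.05), quasi-likelihood F-test between the 2 genotypes without a block, and Benjamini-Hochberg adjustment over 16637 genes, called at an adjusted p under 0.05. The SE is the log2 fold change over the square root of F. The test was checked on simulated data. Alternatives were DESeq2 1.42.0, limma-voom 3.58.1, other scaling, no filter, a replicate block and each library left out.

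Members and lists were chosen with earlier results of these data known. Named beside the members were called genes of each pathway list or the 2 of smallest p, nearest neighbours and the 2 most alike genes; Rdh9, Cyp26a1, Rarb, Aox2 and Tat, named in addition, and the ratios to marker sums were chosen after values were seen. All 9 members matched RefSeq by symbol on GRCm38.p6 (mm10), which gives the coordinates, and 8 had a promoter entry; Aldh1a3 had none. Lengths are from GENCODE M21. Protein sequences were not used here, and the neighbours of Rbp2 are not reported here.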

Additional observations from a re-analysis of the deposited data

How the results depend on the processing

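The number of genes called was 147, and 376 with no filter, 1293 by DESeq2, 78 by limma-voom and 143 with RLE size factors. With each library left out it ran from 0 (without either IEC+/+ library; 1384 and 1754 genes at a nominal (unadjusted) p under 0.05) to 729, the single library of a group then being assumed to vary like the other group. Dhrs9, Aldh1a3 and Aox4 were among the called genes under every setting except those without an IEC+/+ library. Of the pathway genes 2 were called, 9 by DESeq2 and 0 to 5 with each library left out; the cause of these differences was not tested. Over all planned settings the log2 fold change ran from -3.16 to -2.80 for Dhrs9, -2.33 to -1.77 for Aldh1a3 and 1.75 to 1.87 for Aox4, and from -0.06 to 1.47 for Aldh1a1, -0.13 to 0.35 for Aox1 and -1.13 to 0.53 for Aox3, so the direction of these 3 is not set. Relative to the colonocyte marker sum, a choice made after seeing the data, Aldh1a3 had a log2 ratio of 0.34, Rbp2 of 1.21 and Aox3 of 2.17, each opposite in sign to its log2 fold change, as was Aox3 relative to the general epithelial sum (0.57). Of the 12 neighbours 7 changed sign with a library left out, among them Aldh1a7 (-1.09 to 0.49), Lrrk1 (-0.12 to 0.11) and Sgo2a (-0.59 to 0.14). With the replicate block 211 genes and the same 2 pathway genes were called; same-numbered libraries share only a number (correlation of their deviations from the group means 0.16 over genes, from 2 pairs). Rbp7 and Aox3, with 25 and 44 counts in all, are limited by depth.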

Other observations

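IEC-/- replicate 2, the library with high squamous markers, also held the highest values of 3 other genes of retinoid, lipid and aldehyde handling known from stratified epithelia. Crabp2, a retinoic acid-binding protein gene, was counted 0, 1, 0 and 65 times in IEC+/+ replicates 1 and 2 and IEC-/- replicates 1 and 2. Fabp5, the epidermal fatty acid-binding protein gene, had 15.2, 14.9, 17.0 and 72.0 CPM (edgeR adjusted p = 0.308). Aldh3a1, the aldehyde dehydrogenase gene of cornea and stomach, was counted 3, 9, 8 and 61 times. Crabp2 and Aldh3a1 were under the filter on low counts. These genes were picked after their values were seen, and with 1 such library the group and the library cannot be told apart.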
